A study of Mus musculus with 7 samples.

Results

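The 9 genes described here encode secreted or surface-bound cytokines that lymphocytes use to instruct other cells, namely Ifng, Xcl1, Csf2, Il10, Tnf, Ltb, Lta, Tnfsf10 and Osm. They were picked by gene symbol from a table of 16476 genes, and each symbol matched 1 row. Bronchoalveolar lavage cells, the cells that can be washed out of the airspaces of the lung, were sequenced from C57BL/6 mice 3 days after lipopolysaccharide (LPS), a component of bacterial cell walls, had been given into the trachea. The Ntn1 KO group comprised 3 libraries from mice of the genotype Netrin1loxp/loxp LysM Cre, in which both alleles of the gene for the guidance protein netrin-1 are floxed. The LysM Cre group comprised 4 libraries from mice that carry the Cre without the floxed alleles. By their labels all mice of both groups carried the Cre, in a number of copies that is not stated. All had received LPS, and neutrophils had been removed from every sample with antibodies. The Cre is expressed from the lysozyme M locus, which is active in macrophages, monocytes and neutrophils, so lymphocytes are not the cells it is known to act in. No age or sex is stated, nor whether a library came from 1 mouse or from several. The p-values therefore weigh differences against the variation among these libraries, part of which may be technical.

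Cytokines of lymphocytes link the lymphoid and the myeloid arms of inflammation. Natural killer cells and activated T cells release interferon gamma, which arms macrophages, together with XCL1, which attracts cross-presenting dendritic cells. GM-CSF maintains alveolar macrophages, interleukin 10 restrains inflammatory macrophages, and the tumour necrosis factor (TNF) family acts on receptors that trigger inflammatory signalling, lymphoid tissue formation or cell death. Several of the 9 are not confined to lymphocytes, since macrophages, monocytes and neutrophils also make TNF, interleukin 10, oncostatin M and TRAIL, and the lavage cells had not been sorted for lymphocytes.

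The values are normalized counts, read counts divided by a size factor for each library. Behind them stood between 12224835 and 13182585 reads in Ntn1 KO libraries and between 9903284 and 13353733 in LysM Cre libraries. Ntn1 itself was hardly detected, with 2 reads in all Ntn1 KO libraries together and 17 in all LysM Cre libraries (2-sided exact permutation p = 0.0571 over the libraries, the smallest possible being 0.0286). Lyz2, the gene at the locus that carries the Cre, split the LysM Cre group. It stood at 935.9, 1051.9 and 909.7 normalized counts in Ntn1 KO replicates 1 to 3, against 76926.7, 770.1, 721.3 and 118780.8 in LysM Cre replicates 1 to 4. The Cre insertion disrupts Lyz2, and whether the LysM Cre mice differed in Cre copies was not tested. Because LysM Cre replicates 1 and 4 stand apart from replicates 2 and 3 in this gene, the cytokine values are also given without each of these pairs. In bulk RNA, fewer cells of a type and less RNA per cell cannot be told apart.

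Ifng and Xcl1 were about 2- to 3-fold more abundant in Ntn1 KO lavage cells, Il10 and Tnfsf10 rose by less, and Tnf, Ltb, Lta, Csf2 and Osm did not pass the test in either direction. All 9 genes exceeded the minimum mean of 10 normalized counts, the lowest mean being 33.2. With limma on log2(normalized count + 1) and Benjamini-Hochberg adjustment over 12963 genes, 4 of the 9 rose and 0 fell at an adjusted p under 0.05. Over all genes tested 10.4% rose and 11.3% fell. edgeR and DESeq2 on whole reads recovered from the values also found 4 higher and 0 lower. The median log2 fold change was 0.41 over the 9 genes and 0.01 over all genes tested. Libraries of the 2 groups were fully separated for 3 of the 9, each higher in Ntn1 KO. Among all genes tested, 17.4% were separated in that direction and 16.3% in the other, 33.8% in all. In the authors' deposited table the same 4 genes, Ifng, Xcl1, Il10 and Tnfsf10, have an adjusted p under 0.05, and at that level 18.8% of its genes with an adjusted p differ and 8.92% are higher. The number that rose was 2, Ifng and Xcl1, without Ntn1 KO replicate 2, where 695 genes rose and 820 fell, against 1352 and 1461 with all libraries. It was again 2 without LysM Cre replicates 1 and 4, where 4.81% of all genes rose and 4.37% fell. Without LysM Cre replicates 2 and 3 it was 3, where 4.82% of all genes rose and 4.8% fell, and 1 member, Lta, fell.

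**Figure D1:**
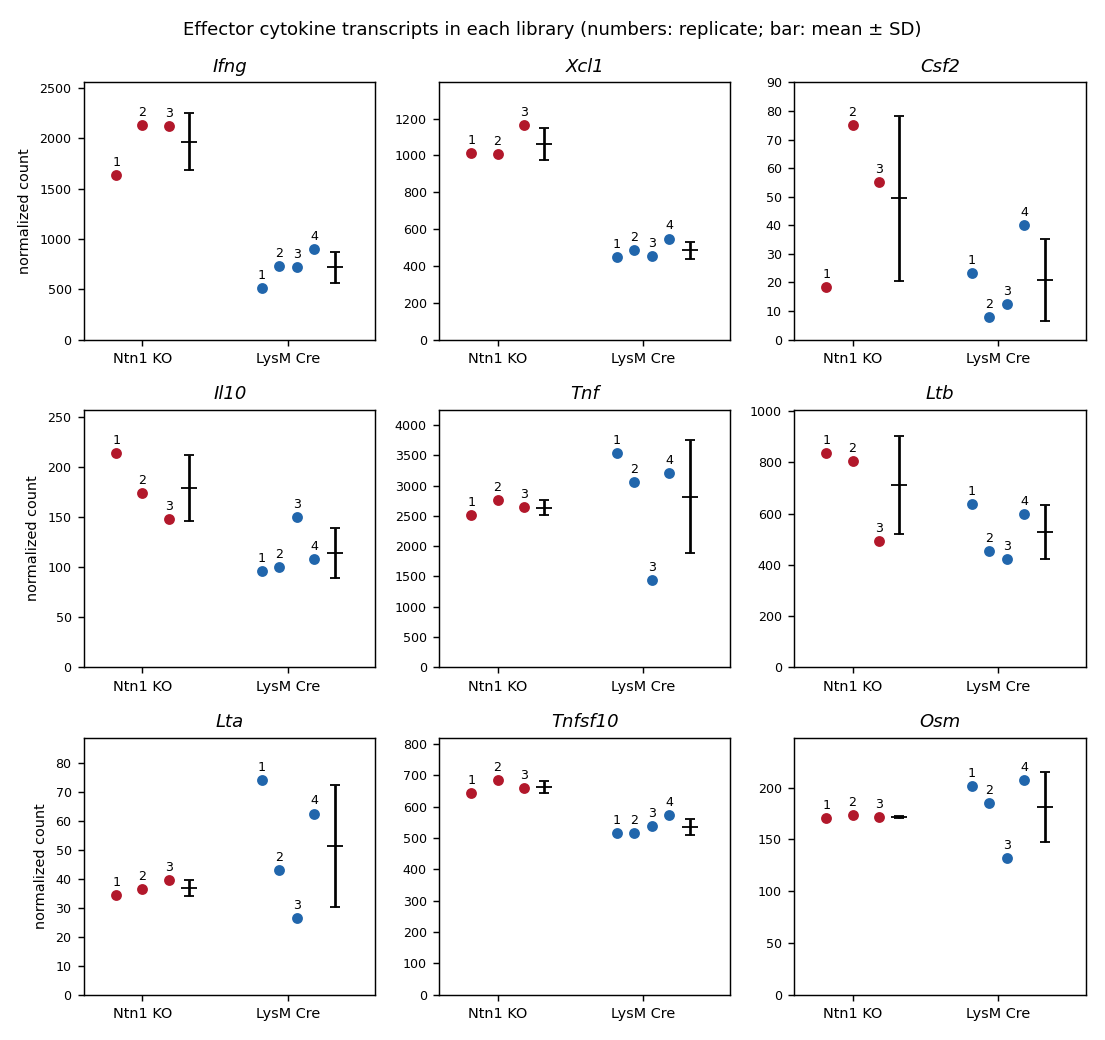
Normalized count of each cytokine gene (vertical axes, starting at 0) in every library, with Ntn1 KO libraries in red on the left and LysM Cre libraries in blue on the right; numbers are replicates and bars are mean ± SD (n = 3 and n = 4). Ifng, Xcl1 and Tnfsf10 have no overlap between the groups, while LysM Cre replicate 3 is the lowest of its group for Tnf, Ltb, Lta and Osm.

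Ifng (ENSMUSG00000055170, GRCm38 chromosome 10, 118441046 to 118445892, plus strand) encodes interferon gamma, the chief macrophage-activating cytokine of natural killer cells and T helper 1 cells. Its normalized count was 1639.6, 2131.6 and 2127.4 in Ntn1 KO replicates 1 to 3, against 512.9, 734.9, 725.7 and 896.6 in LysM Cre replicates 1 to 4. Every Ntn1 KO library lay above every LysM Cre library, and the lowest Ntn1 KO value was that of replicate 1. The means were 1966.2 ± 283 (SD, n = 3) and 717.5 ± 157 (SD, n = 4), a log2 fold change of 1.47 (SE 0.18, limma adjusted p = 0.00136). The fold change was 1.42 (adjusted p = 0.00437) without LysM Cre replicates 1 and 4 and 1.52 (adjusted p = 0.0153) without replicates 2 and 3. Of the 1295 exonic bases of Ifng, 336 are shared with the transcript Gm49751 on the same strand. Reads in these shared bases cannot be told apart.

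Xcl1 (ENSMUSG00000026573, chromosome 1, 164931644 to 164935527, minus strand) encodes lymphotactin, a chemokine released by natural killer cells and CD8 T cells that acts on XCR1. It stood at 1015.0, 1010.5 and 1164.4 normalized counts in the Ntn1 KO replicates, against 447.9, 486.3, 455.8 and 549.2 in the LysM Cre replicates. Here too the groups did not overlap, and the spread within each was small. The log2 fold change was 1.13 (SE 0.09, limma adjusted p = 0.000459), 1.17 without LysM Cre replicates 1 and 4 (adjusted p = 0.00372) and 1.10 without replicates 2 and 3 (adjusted p = 0.00584). Of the exonic bases of Xcl1, 98 are shared with the opposite-strand transcript Gm20743, which had 91.34 ± 15.3 normalized counts in Ntn1 KO libraries and 60.74 ± 14.3 in LysM Cre libraries. The counting's use of strand is unknown here, so reads in the shared bases cannot be told apart.

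The promoters of Ifng and Xcl1, the genes with the largest called fold changes of the 9, are shown as the 250 bases before the RefSeq start (GRCm38.p6), read 5′ to 3′ on the gene's strand. Capitals mark matches on either strand to GGAAA, the core bound by NFAT, the calcium-regulated factor of activated lymphocytes, and to GTGTGA, a core of sites bound by T-box factors such as T-bet and Eomes. The Ifng promoter lies at chr10:118440796-118441045 on the plus strand and the Xcl1 promoter at chr1:164935523-164935772 on the minus strand.
Ifng: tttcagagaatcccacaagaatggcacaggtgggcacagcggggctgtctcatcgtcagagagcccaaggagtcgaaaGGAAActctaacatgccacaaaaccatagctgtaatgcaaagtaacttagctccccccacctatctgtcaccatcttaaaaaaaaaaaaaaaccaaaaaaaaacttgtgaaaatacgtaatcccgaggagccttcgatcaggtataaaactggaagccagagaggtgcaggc
Xcl1: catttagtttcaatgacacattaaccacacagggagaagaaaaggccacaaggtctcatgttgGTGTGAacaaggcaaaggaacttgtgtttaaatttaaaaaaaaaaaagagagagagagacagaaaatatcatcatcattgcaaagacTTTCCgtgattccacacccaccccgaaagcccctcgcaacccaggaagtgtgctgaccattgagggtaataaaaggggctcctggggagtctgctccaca
Outside the capitals, the STAT factor motif TTCNNNGAA and the core promoter element TATAAA each matched once in the Ifng window, 249 and 30 bases before the start, and neither matched in that of Xcl1; 7.18% and 13% of promoters hold them. TGANTCA (AP-1) and the NF-kB motif matched in neither window and occur in 6.87% and 4.6% of promoters. Motifs were sought on both strands. Each window held 1 match to GGAAA, starting 172 bases before the start of Ifng and, as TTTCC, 100 bases before that of Xcl1. Of 27025 promoters of the same length 55.6% hold such a match. GTGTGA occurred once in the Xcl1 window, 187 bases before the start, and not in the Ifng window, and 12.2% of promoters hold it. The letters describe these windows and say nothing of binding in these cells.

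Il10 (ENSMUSG00000016529, chromosome 1, 131019845 to 131024974) encodes interleukin 10, the anti-inflammatory cytokine of regulatory lymphocytes and macrophages. Its normalized counts were 214, 174 and 148.2 in the Ntn1 KO replicates, against 96.48, 99.81, 150.4 and 107.8 in the LysM Cre replicates. The groups overlapped, because LysM Cre replicate 3 lay just above Ntn1 KO replicate 3. There was a log2 fold change of 0.66 (SE 0.18, limma adjusted p = 0.0359), and the call depended on single libraries. It was lost without LysM Cre replicate 1 (adjusted p = 0.0749), 2 (adjusted p = 0.0909) or 4 (adjusted p = 0.0837) and without Ntn1 KO replicate 1 (adjusted p = 0.0989) or 2 (adjusted p = 0.0905). Without LysM Cre replicates 1 and 4 the fold change was 0.52 (adjusted p = 0.185), and without replicates 2 and 3 it was 0.79 (adjusted p = 0.0454). Ntn1 KO replicate 1, where Il10 was highest, also had the highest summed level of 12 neutrophil markers. That sum was 71710.8, 24158.2 and 24970.0 normalized counts in the Ntn1 KO replicates and lay between 16049.0 and 18509.4 in LysM Cre libraries. Of the 12 markers 7 rose, S100a9, Hdc and Stfa2l1 among them, and 0 fell, beside 10.4% and 11.3% of all genes tested. The part of these markers in the result was not tested.

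Tnfsf10 (ENSMUSG00000039304, chromosome 3, 27317028 to 27342427) encodes TRAIL, a death ligand on natural killer cells and interferon-stimulated myeloid cells. It stood at 644.9, 683.6 and 659.5 normalized counts in the Ntn1 KO replicates, against 517, 515.7, 539 and 571.8 in the LysM Cre replicates. The groups did not overlap, but the shift was small. The log2 fold change was 0.31 (SE 0.07, limma adjusted p = 0.0151), and the call was lost without Ntn1 KO replicate 2 (adjusted p = 0.0645). It was also lost without LysM Cre replicates 1 and 4 (0.33, adjusted p = 0.0586) and without replicates 2 and 3 (0.28, adjusted p = 0.0956), at nearly the same fold change.

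Ltb, Tnf and Lta are neighbours, lying within 10913 bases of chromosome 17 (35194439 to 35205351) inside the major histocompatibility complex. Tnf (ENSMUSG00000024401) encodes tumour necrosis factor. It stood at 2508.6, 2757.5 and 2640.5 normalized counts in the Ntn1 KO replicates, against 3542.5, 3060.7, 1446.9 and 3210.1 in the LysM Cre replicates. The Ntn1 KO values fell inside the LysM Cre range, whose width came from LysM Cre replicate 3. There was a log2 fold change of -0.02 (95% interval -0.63 to 0.60, limma adjusted p = 0.972), and without that library it was -0.31 (adjusted p = 0.0346), so the verdict on Tnf rests on LysM Cre replicate 3. The sign was also not stable, the fold change being 0.01 under library size scaling and 0.32 without LysM Cre replicates 1 and 4 (adjusted p = 0.491).

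Lta (ENSMUSG00000024402) encodes lymphotoxin alpha, which signals as a soluble trimer or, joined to the Ltb product lymphotoxin beta, as a membrane complex that acts on the receptor LTBR. It stood at 34.48, 36.54 and 39.75 normalized counts in the Ntn1 KO replicates, against 74.14, 43.05, 26.55 and 62.7 in the LysM Cre replicates. The Ntn1 KO values lay close together inside the LysM Cre range, in which replicates 1 and 4, with high Lyz2, were the highest. The log2 fold change was -0.37 (95% interval -1.10 to 0.35, limma adjusted p = 0.432). It was 0.12 (adjusted p = 0.798) without LysM Cre replicates 1 and 4 and -0.87 (adjusted p = 0.0416) without replicates 2 and 3, so its direction depends on which controls are used.

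Ltb (ENSMUSG00000024399) had 837.6, 806.7 and 491.4 normalized counts in the Ntn1 KO replicates, against 635.8, 454, 422.1 and 598.1 in the LysM Cre replicates. Ntn1 KO replicates 1 and 2 exceeded every LysM Cre library, while replicate 3 lay within the LysM Cre range. There was a log2 fold change of 0.41 (95% interval -0.07 to 0.89, limma adjusted p = 0.191), and without Ntn1 KO replicate 3 it was 0.66 and passed the test (adjusted p = 0.0353). Without LysM Cre replicates 1 and 4 it was 0.66 (adjusted p = 0.117) and without replicates 2 and 3 0.17 (adjusted p = 0.669).

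Csf2 (ENSMUSG00000018916, chromosome 11, 54247271 to 54249667, minus strand) encodes GM-CSF. It was the least abundant of the 9 in LysM Cre libraries per length and the most variable. Its normalized counts were 18.25, 75 and 55.11 in the Ntn1 KO replicates, from 18, 78 and 61 reads. In the LysM Cre replicates they were 23.36, 7.828, 12.39 and 40.13, from 23, 8, 14 and 32 reads. Ntn1 KO replicates 2 and 3 lay above every LysM Cre library, but replicate 1 lay below LysM Cre replicates 1 and 4. The log2 fold change of 1.23 had an SE of 0.60 and a 95% interval of -0.14 to 2.59 (limma adjusted p = 0.175), so a change of the size seen for Ifng is within what these libraries allow. It was 2.00 (adjusted p = 0.0799) without LysM Cre replicates 1 and 4, 0.46 (adjusted p = 0.647) without replicates 2 and 3, and 1.82 (adjusted p = 0.0543) without Ntn1 KO replicate 1. Of the 800 exonic bases of Csf2, 96 are shared with the opposite-strand transcript Gm12223. As for Xcl1, reads in the shared bases cannot be told apart.

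Osm (ENSMUSG00000058755, chromosome 11, 4236420 to 4241026) encodes oncostatin M, a cytokine of the interleukin 6 family made by T cells, macrophages and neutrophils. It stood at 170.4, 173.1 and 171.6 normalized counts in the Ntn1 KO replicates, against 201.1, 184.9, 131.9 and 206.9 in the LysM Cre replicates. The Ntn1 KO libraries were nearly identical and lay inside the LysM Cre range. The log2 fold change was -0.06 (95% interval -0.41 to 0.30, limma adjusted p = 0.822), an interval that leaves out a doubling or a halving; the value was 0.14 without LysM Cre replicates 1 and 4 and -0.25 without replicates 2 and 3.

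**Figure D2:**
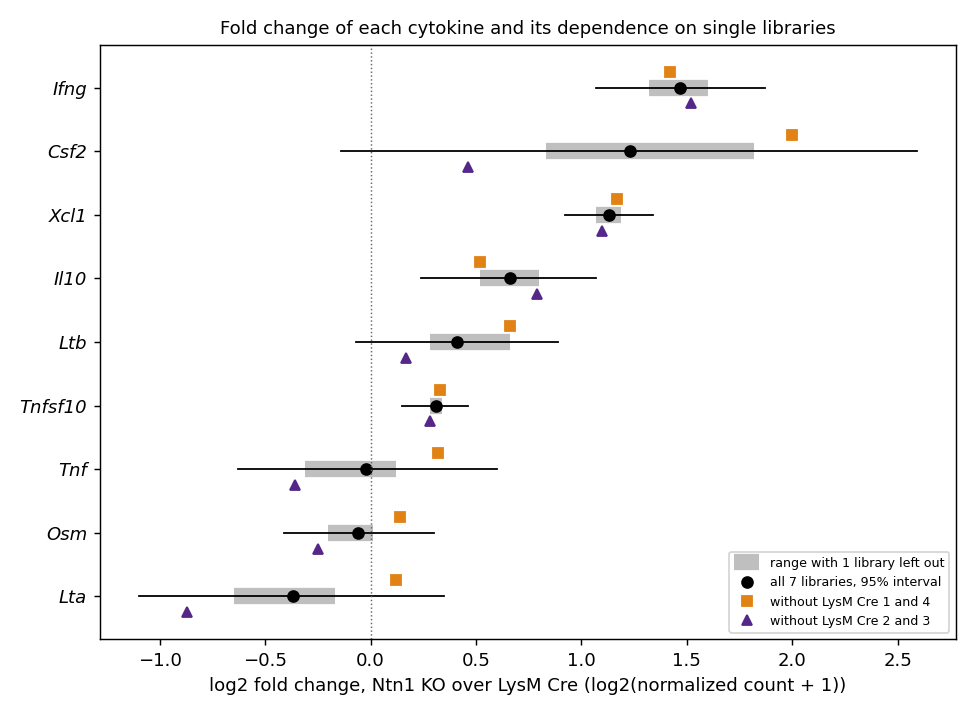
Log2 fold change of each cytokine gene, Ntn1 KO over LysM Cre (horizontal axis, log2(normalized count + 1)), with all libraries (black points, 95% interval), over the 7 fits that leave out 1 library (grey bars) and without LysM Cre replicates 1 and 4 or 2 and 3. Ifng and Xcl1 stay above 1.0 in every setting drawn, Lta moves between -0.87 and 0.12, and Csf2 has the widest interval.

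Many cytokine mRNAs are short-lived because proteins bind AU-rich elements in their 3′ untranslated region, built from the pentamer ATTTA in DNA letters. The stretches with the most pentamers in Csf2, Tnf and Ifng are shown because these 3 genes have the highest pentamer densities of the 9, at 28.4, 10.5 and 9.51 per kilobase. Each is 30 bases of GENCODE M21 sequence (GRCm38), with ATTTA in capitals. The Csf2 stretch lies at chr11:54247325-54247354 (minus strand), the Tnf stretch at chr17:35199678-35199707 (minus strand) and the Ifng stretch at chr10:118445332-118445361 (plus strand).
Csf2: taaatATTTATTTATTTATTTATTTAtttt
Tnf: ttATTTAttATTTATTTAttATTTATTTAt
Ifng: cctATTTAttaatATTTAaaactATTTAta
Overlapping matches included, Csf2 had 9 pentamers in its longest annotated 3′ untranslated region of 317 bases, Tnf 8 in 764 bases and Ifng 6 in 631 bases. Ltb had 0 in 174 bases. The longer form TTATTTATT occurred 4 times in Csf2, 5 times in Tnf, once in Lta and in none of the other 6 genes. It was found in 3 of the 9 genes and in 8.24% of the 11580 tested genes with an annotated 3′ untranslated region. The median density was 7.09 pentamers per kilobase in the 9 genes and 1.33 in all those genes. The 4 genes that rose had between 2 (Tnfsf10) and 9.51 (Ifng) pentamers per kilobase, within the range of 0 (Ltb) to 28.4 (Csf2) of the 5 that were not called.

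Levels were compared between genes per kilobase of annotated exon, including the bases that Ifng, Xcl1 and Csf2 share with other transcripts. In Ntn1 KO libraries Xcl1 stood highest, at 2033.1 ± 167 normalized counts per kilobase (SD, n = 3), followed by Tnf at 1608.0 ± 76 and Ifng at 1518.3 ± 218, then by Ltb, Il10, Tnfsf10, Osm, Csf2 and Lta. In LysM Cre libraries Tnf stood highest, at 1717.6 ± 570 (SD, n = 4), followed by Xcl1 at 927 ± 88 and Ifng at 554 ± 122, then by Ltb, Tnfsf10, Il10, Osm, Lta and Csf2. The ranges of neighbours overlapped in Ntn1 KO libraries for Tnf and Ifng, Il10 and Tnfsf10, Osm and Csf2, and Csf2 and Lta. In LysM Cre libraries they overlapped for Tnf and Xcl1, Ifng and Ltb, Tnfsf10 and Il10, Il10 and Osm, and Lta and Csf2.

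Natural killer cell markers were higher in the Ntn1 KO group, as Ifng and Xcl1 were, while 5 of the 9 cytokines were not called. The counts below stand beside 10.4% of all genes tested that rose and 11.3% that fell. All 12 natural killer markers of the list rose, Nkg7, Il2rb and Eomes with the smallest p, and their median log2 fold change was 1.73. Their summed level was between 54531.7 and 60559.9 normalized counts in Ntn1 KO libraries and between 11835.1 and 19301.5 in LysM Cre libraries, which is 1.79 higher on the log2 scale (exact permutation test, 2-sided p = 0.0286). Several of them, such as Gzma, Prf1, Nkg7 and Il2rb, are also transcribed by cytotoxic T cells. Of 14 T cell markers 4 rose, Trbc1, Cd247 and Cd28 among them, and 0 fell. The other 10 were not called, with log2 fold changes from -0.22 for Cd3g to 0.27 for Trbc2. Among these were Cd3e (-0.17), Cd3d (-0.08) and Trac (0.01), and the median of the list was 0.07. The sum of all 14 was between 8543.1 and 11689.7 in Ntn1 KO libraries and between 7485.5 and 8806.5 in LysM Cre libraries, a log2 difference of 0.33 (exact permutation p = 0.0857). That sum includes the 4 markers that rose. Both marker lists were well detected, so lymphocyte transcripts were present in every library, beside 12 alveolar macrophage markers that summed to between 76329.5 and 129406.9 in Ntn1 KO libraries and between 59856.2 and 96779.2 in LysM Cre libraries.

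Other marker lists also moved, and their part in the cytokine results was not tested. Over all genes tested 10.4% rose and 11.3% fell. Of 12 markers of monocytes and recruited macrophages 2 rose, Plac8 and Ccr2, and 7 fell, Gpnmb, Ms4a7 and Trem2 with the smallest p, and the sum was 24788.9 to 33003.5 normalized counts in Ntn1 KO libraries and 34353.1 to 46213.2 in LysM Cre libraries. Of 7 tested lung epithelium markers 5 rose, Sftpa1, Epcam and Sftpc among them, with sums of 360.4 to 740.2 and 140.7 to 197 in Ntn1 KO and LysM Cre libraries. Single genes rose in the lists of dendritic cells (Ccr7, of 7), B and plasma cells (Ighm, of 4), group 2 innate lymphoid cells (Gata3, of 4) and mast cells, basophils and eosinophils (Kit, the 1 gene tested).

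**Figure D3:**
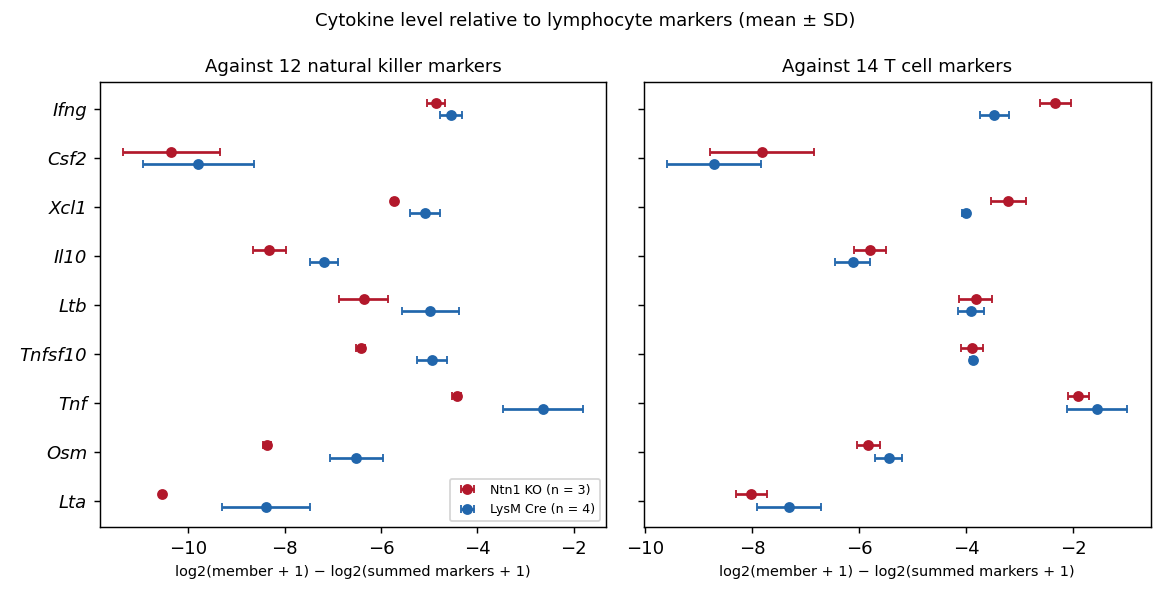
Level of each cytokine gene relative to the summed natural killer (left) or T cell (right) markers in the same library, as a difference of log2 values (horizontal axes), mean ± SD for Ntn1 KO (red, n = 3) and LysM Cre (blue, n = 4). Against natural killer markers every mean is lower in Ntn1 KO (for Csf2 not without LysM Cre replicates 1 and 4), and against T cell markers Ifng and Xcl1 are higher. The natural killer sum itself was 1.79 higher on the log2 scale in Ntn1 KO.

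Set against the natural killer markers of the same library, the mean log2 ratio of every cytokine was lower in Ntn1 KO. The difference for Csf2 was 0.42 higher without LysM Cre replicates 1 and 4 and -0.00 without Ntn1 KO replicate 1. No difference passed after adjustment, but the design left little room for that. The smallest possible p is 0.0286, so a ratio could pass only if most of the 18 tests reached it. The log2 ratio of Ifng to the summed markers was -4.86 ± 0.18 in Ntn1 KO and -4.55 ± 0.22 in LysM Cre libraries, a difference of -0.32 (2-sided exact permutation p = 0.114, adjusted p = 0.187 over 18 such tests). That of Xcl1 was -5.74 ± 0.04 in Ntn1 KO and -5.09 ± 0.31 in LysM Cre libraries, a difference of -0.66 (exact permutation p = 0.0571, adjusted p = 0.114). Il10 (-1.13), Ltb (-1.37), Tnfsf10 (-1.48) and Osm (-1.84) had the smallest p the design allows (exact permutation p = 0.0286, adjusted p = 0.0857 each). The values for Tnf and Lta were -1.80 and -2.16 (exact permutation p = 0.0571, adjusted p = 0.114 each), and that for Csf2 was -0.56 with overlap (exact permutation p = 0.543, adjusted p = 0.611). The summed markers were themselves 1.79 higher on the log2 scale in Ntn1 KO. A cytokine that rose by less, or did not change, therefore comes out lower. These p-values include the difference in the markers and are no separate measure of the cytokines.

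Set against the T cell markers, Ifng and Xcl1 were higher in Ntn1 KO libraries, by 1.14 and 0.80 on the log2 scale, without overlap between groups (exact permutation p = 0.0286, adjusted p = 0.0857 each). The other 7 genes overlapped, with differences between -0.70 for Lta and 0.90 for Csf2. None of the 18 ratio tests passed an adjusted p of 0.05, the lowest being 0.0857, and 6 had an unadjusted exact permutation p under 0.05. With a smallest possible p of 0.0286, none could pass unless most of the 18 reached it. Not passing is therefore no sign that a ratio was unchanged.

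The receptors of the cytokines, which sit mostly on myeloid and stromal cells, mostly did not pass. Of 17 tested receptor genes 1 rose and 3 fell, with a median log2 fold change of -0.25. Over all genes tested 10.4% rose and 11.3% fell. Ifngr1, the ligand-binding chain for interferon gamma, rose to 5909.6, 5823.7 and 5383.2 normalized counts in Ntn1 KO replicates, against 3024.5 to 3671.6 in LysM Cre libraries (log2 fold change 0.74, SE 0.09, limma adjusted p = 0.00114). Its partner chain Ifngr2 had a log2 fold change of -0.28 (adjusted p = 0.0503). The genes that fell were Csf2rb2, a second beta chain of the interleukin 3 receptor in mice (-0.49, adjusted p = 0.0148), Tnfrsf14, a receptor for lymphotoxin alpha and LIGHT (-0.40, adjusted p = 0.0145), and Tnfrsf22, a mouse decoy receptor for TRAIL (-0.61, adjusted p = 0.029). The count that fell was 1 without Ntn1 KO replicate 2 or without LysM Cre replicates 1 and 4, and 5 without LysM Cre replicate 3. Over all genes 820, 567 and 1218 fell in these refits, against 1461 with all libraries. Csf2rb and Csf2rb2 are near copies, as are Tnfrsf22 and Tnfrsf23, and reads can be split between them.

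The remaining receptors did not pass. There was a log2 fold change of -0.36 (adjusted p = 0.282) for Xcr1, the XCL1 receptor of dendritic cells, -0.08 for Csf2ra and -0.14 for Csf2rb, the GM-CSF receptor chains, and 0.19 for Il10ra and -0.15 for Il10rb. It was 0.12 for Tnfrsf1a and -0.25 for Tnfrsf1b, the TNF receptors, -0.25 for Ltbr, 0.19 for Tnfrsf10b, the mouse death receptor for TRAIL, -0.24 for Il6st and -0.68 for Lifr. Osmr, the specific oncostatin M receptor chain, was below the minimum with 7.883 normalized counts on average in Ntn1 KO libraries.

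Among inducers of lymphocyte cytokines and their receptors, several receptor chains rose. For this list and the transcription factors that follow, the shares over all genes tested are 10.4% higher and 11.3% lower. Of 13 tested genes 6 rose and 0 fell (median log2 fold change 0.42), and the 6 were Il2rb, Il12rb2, Il12rb1, Il18rap, Il18r1 and Il2rg. Il12rb1 and Il12rb2 encode the interleukin 12 receptor, Il18r1 and Il18rap that for interleukin 18, and Il2rb and Il2rg chains shared by the receptors for interleukins 2 and 15. The receptor genes Il15ra, for the chain specific to interleukin 15 (-0.22, adjusted p = 0.352), and Il1rl1, for the interleukin 33 receptor (0.42, adjusted p = 0.0933), did not pass. Il12rb2, the signalling chain for interleukin 12, had 1278.5 ± 85.3 normalized counts in Ntn1 KO libraries (SD, n = 3) and 568.3 ± 70.9 in LysM Cre libraries (SD, n = 4), a log2 fold change of 1.17 (SE 0.11, limma adjusted p = 0.000553). The ligands Il12a (0.42, adjusted p = 0.243), Il12b (-0.01, adjusted p = 0.99), Il18 (0.37, adjusted p = 0.348) and Il15 (0.26, adjusted p = 0.602) did not pass. Of 18 transcription factors and signal proteins 10 rose and 1 fell (median 0.26). Eomes (1.85, adjusted p = 0.000454), Stat4 (702.1 ± 34.1 normalized counts in Ntn1 KO libraries and 317.7 ± 41.7 in LysM Cre libraries, adjusted p = 0.000656) and Tbx21, which encodes T-bet (1.14, adjusted p = 0.000772), rose most clearly, and Maf, a factor known for inducing Il10 in T cells, fell (-0.60, adjusted p = 0.0297). The number that rose was 5 without Ntn1 KO replicate 2, 5 without LysM Cre replicates 1 and 4 and 4 without replicates 2 and 3. Over all genes the number also dropped in these refits, from 1352 to 695, 624 and 622. Maf was not called without LysM Cre replicate 2 or 4 or Ntn1 KO replicate 2. Il2rb and Eomes are also on the natural killer marker list.

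Among 15 tested further effector cytokines and TNF family ligands, 3 rose and 1 fell (median 0.03), beside 10.4% and 11.3% of all genes tested. Fasl, the death ligand of cytotoxic lymphocytes, stood at 812 ± 69.4 normalized counts in Ntn1 KO libraries and 309 ± 66 in LysM Cre libraries (log2 fold change 1.41, SE 0.16, limma adjusted p = 0.00108). Tnfsf4, which encodes OX40 ligand, rose by 0.99 (adjusted p = 0.000454) and Tgfb1 by 0.58 (adjusted p = 0.00243), while Tnfsf12, which encodes TWEAK, fell by 0.52 (adjusted p = 0.0247). Tnfsf12 was not called without LysM Cre replicate 4 or Ntn1 KO replicate 2 or 3. The interleukin 17 and 22 genes varied widely within groups. Il17a had 54.76, 279.8 and 271.9 normalized counts in the Ntn1 KO replicates, against 218.4, 183, 55.75 and 492.8 in the LysM Cre replicates (log2 fold change -0.18, adjusted p = 0.889), and Il17f and Il22 were also lowest in Ntn1 KO replicate 1 and, of the controls, in LysM Cre replicate 3.

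Of 13 genes for cytokine mRNA decay and TNF shedding 0 rose and 3 fell (median -0.02), beside 10.4% and 11.3% of all genes tested. Adam17, the protease that releases TNF from the cell surface, fell by 0.46 (SE 0.08, limma adjusted p = 0.00473). Rc3h1 and Rc3h2, the Roquin proteins that promote decay of cytokine mRNAs, fell by 0.38 (adjusted p = 0.00885) and 0.32 (adjusted p = 0.0265). The count that fell was 1 without LysM Cre replicates 1 and 4, where 4.37% of all genes fell. Zfp36, whose product tristetraprolin binds the AU-rich elements shown above for Csf2 and Tnf, had a log2 fold change of 0.15 (adjusted p = 0.43).

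Transcripts known to respond to the cytokines are given beside all genes tested, of which 10.4% rose and 11.3% fell (median log2 fold change 0.01). Libraries were fully separated, higher in Ntn1 KO, for 6 of 18 interferon gamma targets and 5 of 13 tested TNF and lymphotoxin targets. For targets of interleukin 10, oncostatin M and GM-CSF it was 8 of 12. In the other direction the counts were 1, 0 and 0. Among all genes tested, 17.4% were separated higher and 16.3% lower. Of 18 interferon gamma targets 4 rose and 1 fell (median 0.23). Those that rose were Cxcl10 (0.88, adjusted p = 0.00152), Socs1 (0.82, adjusted p = 0.00153), Cxcl11 (0.81, adjusted p = 0.00977) and Igtp (0.36, adjusted p = 0.0352). Ciita, the activator of major histocompatibility complex class II genes, fell by 0.73 (adjusted p = 0.0431), a call that was lost without LysM Cre replicate 1 or 4 or any of the 3 Ntn1 KO libraries. Cxcl9 (0.13, adjusted p = 0.683) and Irf1 (0.26, adjusted p = 0.192), which also respond to interferon gamma, did not pass. Of 13 tested TNF and lymphotoxin targets 1 rose, Relb (0.40, adjusted p = 0.046), and 0 fell (median 0.33). Relb was not called without LysM Cre replicate 2 or 4, without any of the 3 Ntn1 KO libraries or without LysM Cre replicates 2 and 3. Of 12 targets of interleukin 10, oncostatin M and GM-CSF 3 rose and 0 fell (median 0.36), namely Nfil3 (0.59, adjusted p = 0.00477), Ccl17 (1.31, adjusted p = 0.0119) and Ccl22 (0.98, adjusted p = 0.0119).

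**Figure D4:**
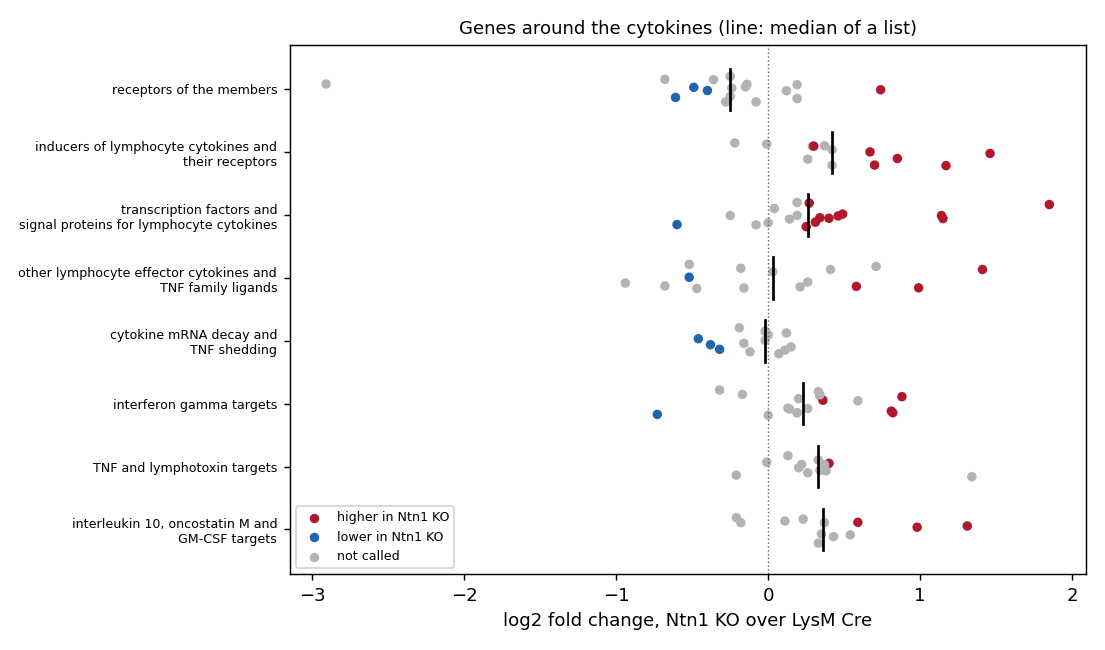
Log2 fold change, Ntn1 KO over LysM Cre (horizontal axis), of each tested gene in 8 lists around the cytokines; red points rose and blue points fell at a limma adjusted p under 0.05, grey points did not pass, and the line is the median of a list. The medians run from -0.25 for the receptors to 0.42 for the inducers and their receptors, and the point near -2.9 is Tnfrsf23, which did not pass.

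For each cytokine the genes most alike in pattern were those with the smallest root mean square difference of mean-centred log2 values over the 7 libraries, clone names left out. Closest to Ifng were Fasl (0.12 on the log2 scale) and Gzmb (0.13), the granzyme B gene, and closest to Xcl1 were Il12rb2 (0.10) and Tnks1bp1 (0.11). Ddit3 (0.12) and Maff (0.15) were closest to Tnf, and Ppp1r15a (0.15) and Ankrd33b (0.16) to Lta. For Il10 they were Ahcy (0.10) and Fggy (0.11), for Ltb Zfp775 (0.09) and Atp5s (0.11), for Tnfsf10 Snrpe and Akna (0.04 each), and for Osm Kpna4 (0.05) and Parp14 (0.06). Csf2 had no close match, its nearest genes being Col5a1 (0.55) and Hr (0.57). All libraries of a group share the genotype, so likeness here includes the difference between groups.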

How the data were processed

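Per the labels' protocols, Trizol was used to extract RNA from lavage cells and a KAPA mRNA kit to prepare libraries. Per the submitters' processing notes, the tools were DESeq2, HTSeq, STAR 2.5.3a and cutadapt 1.15, with the build GRCm38 (mm10); no source here names the strand setting or annotation. The deposited table holds a signal per gene and library, the normalized count. Per the file headers it also gives the authors' log2 fold change with standard error, the score of their test, and p-values before and after adjustment.

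Values were whole multiples of 1 step per library (100% within 0.01), so reads were recovered by division. limma 3.58.1 (R 4.3.3, eBayes with trend) was fitted to log2(normalized count + 1) of 12963 genes with a mean of at least 10, with Benjamini-Hochberg adjustment. Fold changes on this scale understate the change of low genes. Ratios to summed markers were compared by 2-sided exact permutation tests over the 35 possible assignments of libraries to groups. The members and all gene lists were chosen with earlier results of these data known. Named genes are the 9 members, their receptors and, for each list, up to 3 called genes per direction with the smallest p; other list genes were named after their values were seen. Positions, exonic lengths and 3′ untranslated regions are from GENCODE M21, promoters from RefSeq; Il10 and Osm are named without a promoter, and those of the other members are not shown beyond Ifng and Xcl1.

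Libraries within a group differed by far more than sampling noise (chi-square per gene 7.85 to 31.8). This mean over genes, Lyz2 included, was 7.85 for LysM Cre replicates 1 and 4 and 10.6 for replicates 2 and 3. The other LysM Cre pairs had 16.3 to 27.9. In the Ntn1 KO group it was 8.38 for replicates 2 and 3, and 30.5 and 31.8 for the pairs with replicate 1. In simulated data for Ntn1 KO over LysM Cre, over 12846 genes, limma recovered 34.3% of the 67 genes given a 1.5-fold change, 71.9% of the 64 given 2-fold and 96.9% of the 64 given 4-fold, with 9 false calls among 140. In the real data 21.7% of genes were called, a far larger share than the simulation changed. The recovered shares therefore need not hold for the real comparison. Alternatives were other scalings, pseudocounts and filters, edgeR 4.0.16, DESeq2 1.42.0 and limma-voom on recovered reads, replicate blocks, and libraries left out.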

Additional observations from a re-analysis of the deposited data

Results flagged for a closer look

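In 5 of 100 results examined in the 4 LysM Cre libraries, 1 library lay apart from the other 3 (Dixon's criterion on its gap as a share of the group's range), which chance gives in about 1 in 20 groups. The log2 ratio of Ifng to the T cell markers was lowest in LysM Cre replicate 1, at -3.88 against -3.347, -3.368 and -3.295 (gap 0.875 of the range). The summed T cell markers were highest in LysM Cre replicate 4, at 8806.5 against 7485.5 to 7565.4 (gap 0.94). Hdc was lowest in LysM Cre replicate 3, at 652.2 normalized counts against 1007.9 to 1058.3 (gap 0.876), and S100a9 was lowest in LysM Cre replicate 1, at 2793.0 against 3355.9 to 3398.2 (gap 0.93). Tnfrsf23, a mouse decoy receptor for TRAIL, was highest in LysM Cre replicate 1, at 548.4 against 369.9 to 397.3 (gap 0.847).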

How the results depend on the processing

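Of 187 refits of the 9 fold changes, 157 kept direction and call, 13 lost a call (Il10 and Tnfsf10), 3 gained 1 and 14 changed sign, the sign changes being in Tnf, Osm or Lta. Under the scalings, pseudocounts, filters and count tools tried, 4 members rose and 0 fell; Csf2 and Lta have no value with a minimum mean of 50. With single libraries left out, 2 to 5 members rose and 0 to 1 fell, and over all genes 695 to 1172 rose and 820 to 1303 fell; without LysM Cre replicates 1 and 4, 2 members rose, with 624 higher and 567 lower genes, and without replicates 2 and 3, 1 member (Lta) fell, with 622 and 620. With a replicate block by title number 2 members rose, with 424 higher and 382 lower genes, and by description number 2, with 591 and 605. Same-numbered libraries did not deviate together (correlations -0.229 to -0.0253 by title and -0.285 to 0.0762 by description). With so few libraries a group, these correlations cannot exclude a shared batch or pairing. Sign changes were as follows. Tnf was 0.01 by library size, 0.07 and 0.12 with the title and description blocks, 0.02 to 0.12 without LysM Cre replicate 1, 2 or 4 or Ntn1 KO replicate 1 (lowest -0.31, without LysM Cre replicate 3), and 0.32 without LysM Cre replicates 1 and 4; the cause was not tested. Osm was 0.01 and 0.00 with the blocks, 0.00 and 0.01 without LysM Cre replicate 1 or 4 (lowest -0.20), and 0.14 without both, and Lta 0.12 without both. Of 234 refitted ratios 10 changed sign. Against natural killer markers, Csf2 was 0.42 without LysM Cre replicates 1 and 4. Against T cell markers, Ltb was -0.08 without Ntn1 KO replicate 1 (highest 0.23) and -0.10 without LysM Cre replicates 2 and 3, and with Cd3e alone Osm was 0.11, Tnf 0.15 and Tnfsf10 0.47. Tnfsf10 was also 0.07 with mean log2 markers, 0.08 without Ntn1 KO replicate 2, 0.00 without LysM Cre replicate 3 (lowest -0.12) and 0.02 without replicates 2 and 3. Depth limits Csf2 (8 to 78 reads a library) and Lta (30 to 73) most.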

Other observations

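Cd163l1, a scavenger receptor of gamma-delta T cells, stood at 306.2, 318.3 and 252 normalized counts in Ntn1 KO replicates, against 608.4, 692.8, 713.3 and 758.6 in LysM Cre replicates, without overlap (log2 fold change -1.25, SE 0.11, limma adjusted p = 0.000474). Of 6 gamma-delta T cell genes 0 rose and 1 fell, beside 10.4% and 11.3% of all genes tested. The receptor chain Trdc had a log2 fold change of -0.15 (adjusted p = 0.633). Both genes were singled out after their values were seen.

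Tnfrsf23 was nearly silent in 1 library. It stood at 224.1, 2.884 and 198.7 normalized counts in Ntn1 KO replicates 1 to 3, against 369.9 to 548.4 in LysM Cre libraries, and the spread among the Ntn1 KO libraries left its fold change uncalled (log2 fold change -2.91, SE 1.22, limma adjusted p = 0.121).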
